A study of Mus musculus with 26 samples.

Results

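The RNA of NIH3T3 cells held in KCl for 7 h was compared with that of control cells, across all genes. The comparison rests on 4 of the 26 libraries of the series, chosen by their labels alone: both RNA libraries of KCl for 7 h and both RNA libraries of the control that KCl shares with H2O2. NIH3T3 is an established line of mouse embryonic fibroblasts, and all libraries came from it. The series stresses these cells with heat, with H2O2 (oxidative stress) or with KCl (osmotic stress), and measures polyA-selected RNA and ribosome footprints, the mRNA fragments that ribosomes cover. Besides the 4 libraries, those of KCl for 2 h and of H2O2 for 7 h (2 RNA libraries each) were used for direct comparisons, and the footprint libraries of KCl for 7 h and of the control (2 each) as another readout. The labels give neither the KCl concentration nor a time for the control, and they do not say whether replicates 1 and 2 were separate cultures. P-values therefore measure the spread between these libraries, which may be technical.

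The KCl 7 h libraries held 30094091 and 24441877 counts and the controls 45244430 and 35775040. Replicates of the 10 RNA libraries fitted together correlated at 0.997 to 0.999 in log2 CPM (counts scaled to library size, after TMM scaling). The cell line was checked against marker genes. All 8 fibroblast markers, Col1a1 and Vim among them, were at 1 TPM (a transcript abundance corrected for length) or more in each of the 4 libraries, with summed levels of 8189 to 9082 TPM. Of 5 muscle markers, all were under 1 TPM in every library, with Myod1 and Myog listed at 0 in all 4. Of 5 endothelial markers, 4 were under 1 TPM, Tie1 was listed at 0, and the sum went from 0.73 and 0.42 TPM in the controls to 2.73 and 2.94 TPM after KCl, mostly Kdr. Of 5 neuronal markers, Rbfox3 and Snap25 were listed at 0, while Map2 and Tubb3 were expressed, and the sum went from 24.5 and 24.7 TPM to 12.9 and 14 TPM. Of 6 epithelial markers, Krt18 and Krt19 were above 1 TPM in every library, and the sum went from 51.7 and 55.1 TPM to 83.4 and 79.8 TPM. Any part of these cell type markers in the results below was not tested.

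A salty medium draws water out of a cell, and the cell restores its volume by taking up ions, while the Na+/K+ ATPase keeps pumping sodium out and potassium in. Over hours, cells replace the excess ions with small organic osmolytes: sorbitol, myo-inositol, taurine, betaine and glycerophosphocholine. The transcription factor NFAT5, also called TonEBP, is known for this switch. It binds tonicity elements near the genes that make or import osmolytes, and has been studied most in the kidney medulla.

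RNA of most genes differed after 7 h of KCl. By the edgeR quasi-likelihood test with a Benjamini-Hochberg adjusted p under 0.05, 9118 of 13256 genes tested (68.8%) were called, 4926 higher (37.2%) and 4192 lower (31.6%). Larger changes were fewer: 1412 genes were called and at least 2-fold higher (10.7%), and 1031 at least 2-fold lower (7.78%). At 4-fold or more, 499 were higher and 149 lower. The median log2 fold change of all genes tested was 0.04, and in 83.4% of genes the KCl libraries did not overlap the controls (44.3% higher and 39% lower). With so large a share called, the count for any list is read beside these percentages. For list counts against KCl 2 h, the shares of all genes were 35.1% higher and 33.7% lower. For those against H2O2 for 7 h, they were 37.4% and 41%. Against control, the split between higher and lower was not stable: limma on log2(TPM + 1) called 4027 genes higher and 4806 lower, and edgeR with the 2 groups alone called 4532 higher and 4571 lower. CPM and TPM are relative to a library's total, and in these bulk samples fewer cells of a type and less RNA per cell cannot be told apart.

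**Figure D1:**
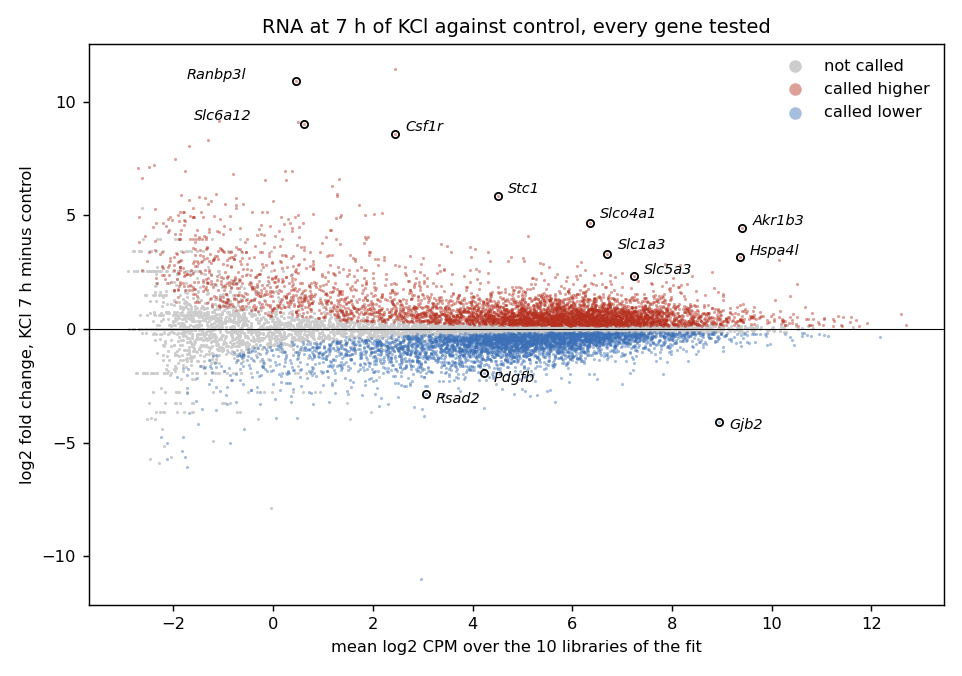
Each point is 1 of 13256 genes tested: mean log2 CPM over the 10 RNA libraries (x axis) against the log2 fold change, KCl 7 h minus control (y axis), with called genes in red (4926 higher) and blue (4192 lower). Most of the highest fold changes lie at low mean levels, while Akr1b3, Hspa4l and Gjb2 are changes of abundant RNAs.

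Genes that make or import osmolytes rose together. They held both the most abundant RNA among the large rises and an RNA that control cells all but lacked. A list named NFAT5 and osmolyte genes held 11 genes. Besides Nfat5 and genes of osmolyte synthesis, uptake and breakdown, it held the chaperone Hspa4l, the kinase Sgk1 and the water channel Aqp1. Of the 11, 10 were called higher and 1 lower, and the list's median log2 fold change was 1.98. Akr1b3, aldose reductase, which makes sorbitol from glucose, had 121 and 121 CPM in the controls and 2639 and 2650 CPM after KCl. The replicates of each group lay close together and far from the other group, and the log2 fold change was 4.45 (SE 0.06, adjusted p 1.16e-14). The gene lies at chr6:34303930-34317489 (GRCm38.p6). Its mean level after KCl, 4079 TPM, stood beside those of Actb (3932 TPM), which encodes cytoplasmic actin, and of ND4 (4092 TPM), a mitochondrial mRNA.

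Slc6a12, the betaine transporter BGT1, had 1 and 0 counts in the controls and 233 and 173 after KCl for 7 h (8.32 and 7.64 CPM). After scaling by library size this was a ratio of 694 (95% exact interval 124 to 27459, counting error only). At 2 h of KCl it was at 0 and 0.0397 CPM, so its RNA was near absent at the earlier time as well.

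Slc5a3, the myo-inositol transporter, had 56.2 and 60.2 CPM in the controls and 279 and 301 CPM after KCl, a log2 fold change of 2.32 (SE 0.12, adjusted p 1.71e-09). Slc6a6, the taurine transporter, went from 319 and 338 CPM to 991 and 1008 CPM, a log2 fold change of 1.61 (SE 0.08, adjusted p 1.06e-09). For both importers the libraries of the groups did not overlap. Pnpla6, the esterase that makes glycerophosphocholine, rose from 54.9 and 55.4 CPM to 221 and 225 CPM, a log2 fold change of 2.01. Gdpd5, which breaks glycerophosphocholine down, fell from 19.5 and 20.5 CPM to 8.4 and 7.2 CPM, a log2 fold change of -1.35. It was the member of the list called lower, so the synthetic enzyme and the degrading enzyme of this osmolyte moved in opposite directions.

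Nfat5 itself rose from 137 and 144 CPM to 539 and 570 CPM, a log2 fold change of 1.98 (SE 0.11, adjusted p 2.14e-09). It had 478 and 655 CPM at 2 h of KCl, a range that spans both 7 h libraries, and the direct test between 7 h and 2 h did not call it (log2 difference -0.03, SE 0.10, adjusted p 0.82). Hspa4l, a chaperone of the HSP110 family known from osmotic stress, went from 242 and 258 CPM to 2210 and 2276 CPM, a log2 fold change of 3.16 (SE 0.09, adjusted p 5.2e-12). Unlike Nfat5 it was far higher at 7 h than at 2 h, where it had 440 and 544 CPM.

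Of the remaining members, Slc38a2, a transporter of small neutral amino acids, rose by 1.96 on the log2 scale, Aqp1, a water channel, by 1.78, and Sgk1, a kinase that regulates ion transport, by 0.92. In the direct comparison of 7 h with 2 h, 8 of the 11 genes were higher at 7 h and 2 lower, against 35.1% and 33.7% of all genes tested. Slc38a2 (log2 difference -0.66) and Gdpd5 (-0.96) were those lower at 7 h. Against H2O2 for 7 h, 10 of the 11 were higher with KCl and 1, Gdpd5, was lower, against 37.4% and 41% of all genes tested. Akr1b3 had 80.9 and 80.9 CPM with H2O2, and Hspa4l 104 and 109 CPM, both below the controls.

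**Figure D2:**
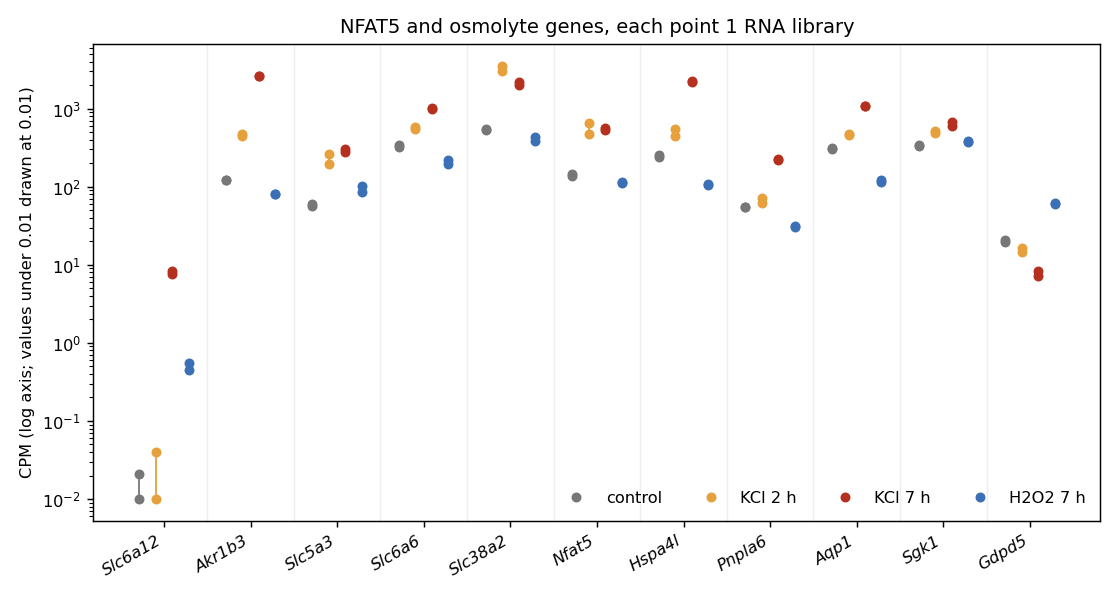
CPM (log axis; values under 0.01 are drawn at 0.01) of the 11 NFAT5 and osmolyte genes in the control, KCl 2 h, KCl 7 h and H2O2 7 h libraries, each point 1 library. Both KCl 7 h points lie above both control points for 10 genes and below them for Gdpd5.

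Promoter sequences were searched for the tonicity element because NFAT5 is known to bind it. RefSeq promoters of GRCm38.p6 were read from 250 bases before to 50 after each gene's start, on both strands. The element was found in 4.96% of all 32841 promoters and in 3.73% of the 13075 promoters of genes tested. Of 74 genes that were at least 4-fold higher with a mean log2 CPM of 3 or more, 54 had promoters in the table, and 7 of their 69 promoters (10.1%) held it, in Gabre, Gper1, Hsph1, Nupr1, Pcx and Pnpla6. Of the 11 NFAT5 and osmolyte genes, 8 had promoters, and 2 of 19 promoters (10.5%) held it, in Pnpla6 and Slc6a12. None of the 13 promoters of the 15 largest falls held it, but so few promoters cannot tell none from a share of 3.73%. The matches in the 4-fold and osmolyte sets were 8 distinct elements in 7 genes. The Hsph1 promoters that held it overlap and share the same element, so the percentages rest on few separate sites. The elements of these genes are shown with 8 bases on either side, 5′ to 3′ on the strand that holds the element, which is in capitals:
Slc6a12: gtacttggTGGAAAACTCCagtctgtg
Pnpla6: tcggtcgaTGGAAACTCGTaccattca
Gper1: agtcacacTGGAAACTTCCataaaata
Hsph1: gcagattcTGGAAAGTTCTcctcagta
Nupr1, 221 bases before the start: tttccacgTGGAAAAACACagctgtgc
Nupr1, 234 bases before the start: tttccacgTGGAAAGCTCTcgcctcag
Pcx: tccaccaaTGGAAAGTCTTacgggcgg
Gabre: agccccgaTGGAAATCTCCgacgacgt

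The element searched for was defined to begin with TGGAAA, the core that NFAT5 shares with other NFAT proteins. Every match therefore begins with this core by definition, and the shared start is not a result. The core alone was found in 21.4% of all promoters, in 16.7% of those of genes tested, in 15.9% of those of the 4-fold set, and in 46.2% of the 13 promoters of the 15 largest falls and 31.2% of the 16 promoters of interferon response genes. The AP-1 site TGANTCA was found in 7.81%, 5.37% and 2.90% of the same promoters, and the CRE core TGACGT in 7.51%, 10.9% and 8.70%. The Slc6a12 element lies at chr6:121342499-121342509, 75 bases before the gene's listed start, and that of Gper1 at chr5:139423008-139423018, 142 bases before it. Hsph1, Pcx and Nupr1 (221 bases before the start) also held an element on the strand of the gene. The promoter bases before the listed starts of Slc6a12 and Gper1 are shown as examples that pair a large rise with such an element (chr6:121342324-121342573 and chr5:139422929-139423149, plus strand):
Slc6a12: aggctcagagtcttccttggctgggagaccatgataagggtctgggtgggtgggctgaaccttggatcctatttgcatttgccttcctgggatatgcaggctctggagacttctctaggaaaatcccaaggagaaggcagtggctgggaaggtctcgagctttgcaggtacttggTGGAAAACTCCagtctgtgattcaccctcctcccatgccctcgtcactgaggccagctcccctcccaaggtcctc
Gper1: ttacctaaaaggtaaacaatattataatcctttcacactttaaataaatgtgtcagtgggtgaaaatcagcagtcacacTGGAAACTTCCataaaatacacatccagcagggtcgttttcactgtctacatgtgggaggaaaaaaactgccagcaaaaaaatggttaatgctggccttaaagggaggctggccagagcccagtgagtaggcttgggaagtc
A match describes the letters only, since binding was not measured and enhancers lie outside these windows.

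Beta subunits of the sodium pump were among the ion transport genes that rose. In a list of 24 tested genes of cell volume and ion transport, 12 were called higher and 5 lower, with a median log2 fold change of 0.30 (0.14 without KCl 7 h replicate 2). Atp1b1, a beta subunit of the Na+/K+ ATPase, had 26.2 and 26.7 CPM in the controls and 177 and 179 CPM after KCl, a log2 fold change of 2.75 (SE 0.08). Atp1b3, another beta subunit, rose by 1.45, while Atp1b2 was not called (0.48). Slc12a2, the Na-K-Cl cotransporter of volume recovery, was not called, with 55.4 and 56.9 CPM against 54 and 57.8 CPM. The potassium channel Kcnk2 rose by 1.70, and the calcium-activated potassium channel Kcnn4 fell by 0.92 on the log2 scale. Lrrc8b, a subunit of the channel that swollen cells open, fell from 30.5 and 28.9 CPM to 6.57 and 6.18 CPM, a log2 fold change of -2.22, whereas the obligatory subunit Lrrc8a rose by 0.57.

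Amino acid transporters were divided. Of 17 tested, 8 were called higher and 4 lower, against 37.2% and 31.6% of all genes tested. Their median log2 fold change was 0.89 in edgeR and 0.11 on the log2(TPM + 1) scale. Slc1a3, a glutamate and aspartate transporter, had 39.3 and 34.3 CPM in the controls and 351 and 379 CPM after KCl, a log2 fold change of 3.31 (SE 0.08, adjusted p 1.49e-12). It was at 5.97 and 6.84 CPM with H2O2 for 7 h, below the controls. Slc38a4 rose by 1.66 and the lysosomal transporter Slc36a1 by 1.44. Slc7a5, which exchanges large neutral amino acids, fell by 0.77, and the cystine carrier Slc7a11 by 0.63, a call that was lost without KCl 7 h replicate 1. Slco4a1, a thyroid hormone and organic anion transporter, went from 10.1 and 9.85 CPM to 238 and 262 CPM, a log2 fold change of 4.65 (SE 0.08, adjusted p 5.03e-14).

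The largest rise among genes with a mean log2 CPM of 3 or more was that of Stc1. Stc1 encodes stanniocalcin 1, a secreted hormone of calcium and phosphate handling, and lies at chr14:69029289-69041401. It had 1.51 and 2.15 CPM in the controls, 7.16 and 7.43 CPM at 2 h of KCl and 100 and 109 CPM at 7 h, a log2 fold change against control of 5.86 (SE 0.12, adjusted p 2.47e-13). Most of the rise therefore fell between 2 h and 7 h. After Stc1, Slco4a1 and Akr1b3 came Tns4, an adaptor of focal adhesions, from 7.45 and 7.52 CPM to 120 and 136 CPM (log2 fold change 4.09). Ak4, a mitochondrial adenylate kinase, rose by 3.75, and Tnxb, a tenascin of connective tissue, by 3.66. The kinase Fes rose by 3.59, and the nuclear pore relative Nup210l by 3.54. Gper1, a membrane receptor for estrogen, rose by 3.38, Ddit4l, an inhibitor of mTORC1 signalling, by 3.37, Rftn2, a lipid raft protein, by 3.16, the secreted protease-like Prss35 by 3.15 and the synaptic scaffold Shank2 by 3.14. Fes ran against the others: it was at 57.8 and 51.6 CPM at 2 h and had come down to 14.3 and 18.4 CPM at 7 h. Together with Hspa4l and Slc1a3, these are the 15 largest rises, taken among genes whose KCl libraries both lay above both controls.

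Many of the highest fold changes belonged to RNAs that control cells barely held. Of the 499 genes at least 4-fold higher, 399 had under 1 CPM in the controls, which a choice by fold change and the filter on low counts favour. Their median went from 0.0779 CPM in the controls to 0.445 CPM at 2 h and 0.861 CPM at 7 h of KCl. At 7 h, 161 of them had 1 CPM or more in both libraries and 26 had 5 CPM or more. Their levels were thus mostly low at 7 h too, and 45 of them could be tested in footprints, where 18 were called higher. A gene low in the controls can pass the footprint filter through a group where it is high, so that count is a description. The other 100 had a median of 7.14 CPM in the controls and 44.4 CPM at 7 h, and of the 89 of them tested in footprints 72 were higher. In the direct comparisons 88 of those 100 were higher at 7 h than at 2 h and 8 lower, and of the 399 genes 218 were higher and 98 lower, against 35.1% and 33.7% of all genes. With KCl rather than H2O2, 97 of the 100 were higher and 2 lower, and 245 of the 399 were higher and 48 lower, against 37.4% and 41% of all genes. These comparisons use the KCl 7 h libraries by which the genes were chosen.

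Among genes with at most 3 control counts in all, Ranbp3l, a relative of the export factor Ranbp3, had 0 and 0 counts in the controls and 211 and 177 after KCl, at least 221-fold higher against a floor of 3 counts over the group. Crtam, a lymphocyte adhesion protein, had 0 and 0 counts against 59 and 55, at least 64.9-fold higher. A4gnt, a glycosyltransferase of gastric mucin, had 1 and 1 counts against 74 and 78, a ratio of 130 (95% exact interval 35.3 to 1082). In all of them each KCl library held more counts than both controls together. Qtrt2 met the same rule, but the table also carries this gene under another symbol, and with both summed its log2 fold change was -0.23.

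Csf1r, the receptor of macrophage colony-stimulating factor, was picked out after its values were seen, because it is a macrophage marker. It had 0.0414 and 0.105 CPM in the controls, 1.11 and 0.914 CPM at 2 h and 29.2 and 27.2 CPM at 7 h of KCl, which is a rise over the control, on the log2 scale, of 8.59 (SE 0.23, adjusted p 3.86e-12). The 6 leukocyte markers summed to 10.1 and 9.71 TPM in the controls and 21.4 and 21.2 TPM after KCl. Csf1r itself made up 16.1 and 15.4 TPM of the latter, Cd68 fell from 9.98 and 9.59 TPM to 5.32 and 5.62 TPM, and Ptprc, Aif1 and Lyz2 were at 0.12 TPM or less in all 4 libraries. Cldn4, a tight junction protein of epithelia, rose from 0.186 and 0.21 CPM to 4.18 and 4.77 CPM, and of the other epithelial markers Krt19 rose by 0.71, Cdh1 by 1.82 and Krt18 by 0.39 on the log2 scale (the last call lost without control replicate 2 or KCl 7 h replicate 2), while Epcam had 0.25 to 0.66 TPM. Krt8 went the other way at a low level, from 0.26 and 0.23 TPM in the controls to 0.04 and 0.11 TPM after KCl. Other genes picked out after their values were seen were Tnfsf15, a cytokine (log2 fold change 5.09), Casq2, a calcium store protein of muscle (5.85), Rnf183, a ubiquitin ligase (5.94), Slc15a3, a lysosomal peptide transporter (6.94), Gal3st1, which makes sulfatide (5.45), Htra3, a secreted protease (4.36), and Pax8, a transcription factor of kidney and thyroid (4.82).

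Gjb2 fell most among well expressed genes. It encodes connexin 26, a gap junction channel, and lies at chr14:57098602-57104702. Gjb2 had 315 and 296 CPM in the controls, 337 and 338 CPM at 2 h of KCl and 18.6 and 17.3 CPM at 7 h, a log2 fold change against control of -4.09 (SE 0.07, adjusted p 6.65e-14). The fall was absent at 2 h, and with H2O2 for 7 h the gene was at 591 and 629 CPM. Of 8 connexin and pannexin genes tested, 5 were called lower and 2 higher. Gjb5 fell by 1.11 and Gja1, the main connexin of fibroblasts, by 0.23 on the log2 scale, while Panx1 rose by 0.39. The call of Panx1 was lost without control replicate 2 or KCl 7 h replicate 2. The call of Gjb5 was lost without KCl 7 h replicate 2, and that of Gja1 without control replicate 2 or KCl 7 h replicate 1.

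Other large falls were those of Lmnb2, a nuclear lamin, from 65.2 and 77 CPM to 8.29 and 6.84 CPM (log2 fold change -3.22), and of Neurl4, a centriolar protein, from 46.7 and 49.7 CPM to 6.82 and 5.56 CPM (-2.95). Enox2, a cell surface oxidase, fell by 2.93, Lrrc32, which displays latent TGF-beta, fell by 2.92, and Dph1, an enzyme that modifies elongation factor 2, by 2.88. Sspn, of the dystrophin complex, fell by 2.74, Angptl7, a secreted matrix protein, fell by 2.71, and Cd248, a membrane protein of stromal fibroblasts, by 2.68. All of these were also called lower at 7 h than at 2 h, a comparison that uses the same KCl 7 h libraries. Ccn4 and Fbh1 were among the 15 largest falls as listed (-3.84 and -3.46), but the table carries each under another symbol as well, and with both symbols summed their log2 fold changes were -1.37 and -1.63.

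Interferon response genes were lower. Of 16 tested, 13 were called lower, 9 of them at least 2-fold, with a median log2 fold change of -1.25. In edgeR 0 were higher, also at an unadjusted p under 0.05, and DESeq2 called 0 higher and 13 lower; without control replicate 2, edgeR called 1 higher. Ifit1, which binds foreign RNA, had 28.8 and 31 CPM in the controls and 3.39 and 4.9 CPM after KCl, a log2 fold change of -2.87 (SE 0.14, adjusted p 8.05e-10). Rsad2 (viperin, an antiviral enzyme) fell from 6.56 and 8.23 CPM to 0.822 and 1.24 CPM (-2.86), Mx1 by 2.77 and Isg15, a ubiquitin-like modifier, by 1.99. The transcription factor Irf7, which drives the response, fell by 1.70. Tap1, the peptide transporter of antigen presentation, fell from 13.4 and 14.1 CPM to 2.07 and 2.03 CPM (-2.74), and the immunoproteasome subunit Psmb9 by 1.84. Ifit2 and Stat2 were not called (log2 fold changes 0.11 and 0.12). The 16 genes were lower than at 2 h in 11 cases and lower than with H2O2 in 14, against 33.7% and 41% of all genes. In footprints 15 were tested and 2 were called lower (Ifit1 and Isg15) and 2 higher, with a median of -0.20. Ifit2 was among those higher (1.41).

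**Figure D3:**
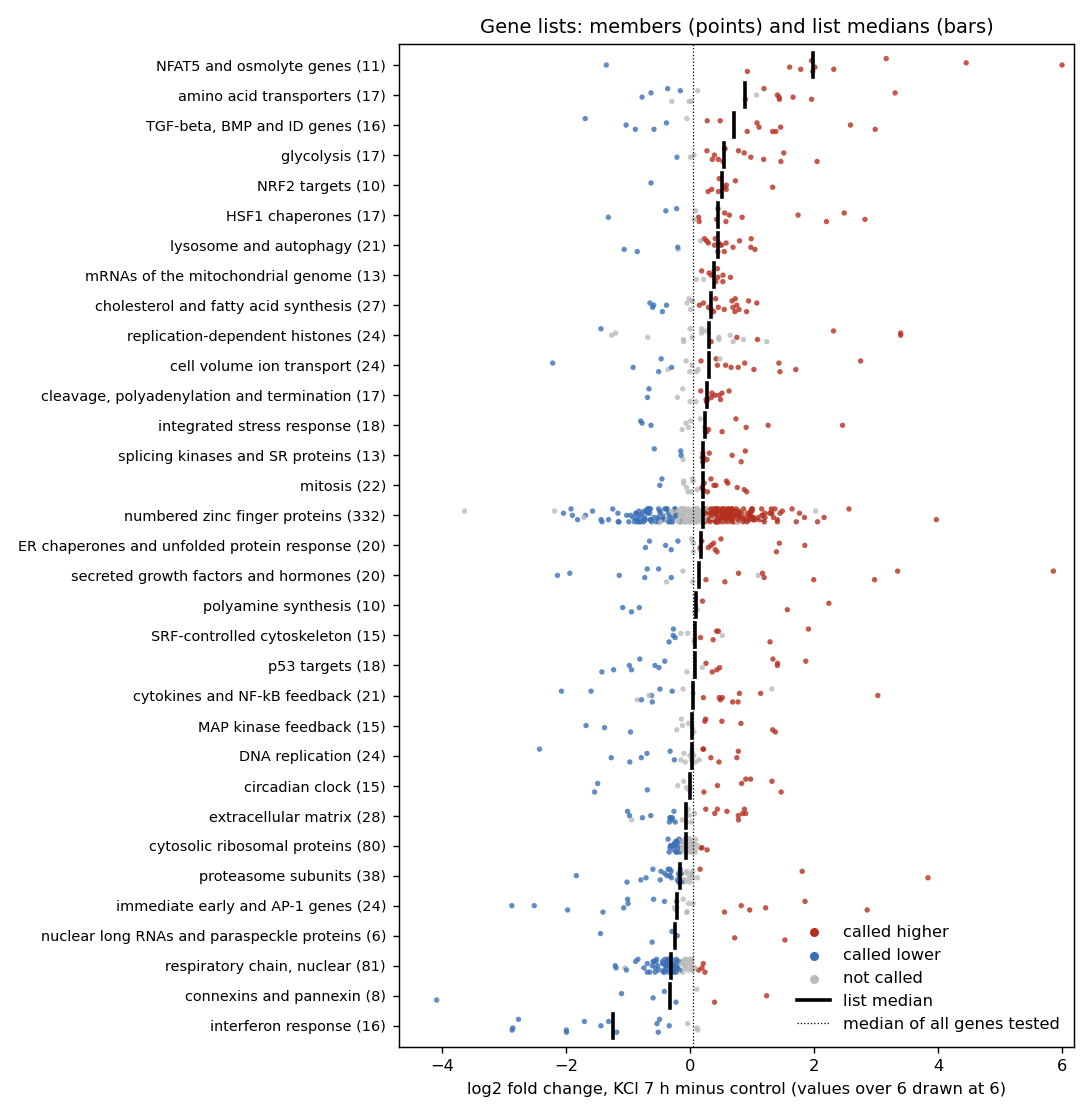
Log2 fold change of RNA, KCl 7 h minus control (x axis; Slc6a12, at 9, is drawn at 6), for the tested members of each gene list, with their number in parentheses, the list median as a bar and the median of all genes tested, 0.04, as a dotted line. NFAT5 and osmolyte genes have the highest median (1.98) and interferon response genes the lowest (-1.25).

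Immediate early genes, which cells switch on within minutes of a stimulus, stood lower at 7 h than at 2 h. Of 24 tested, 6 were called higher and 10 lower than the control, with a median of -0.22. Of the 24, 21 were lower than at 2 h, against 33.7% of all genes tested. Egr3 had 9 and 8.78 CPM in the controls, 9.92 and 11.5 CPM at 2 h and 0.893 and 1.59 CPM at 7 h, a log2 fold change against control of -2.88. Egr1 fell from 97 and 114 CPM to 25.6 and 28.2 CPM (-1.98), Klf2 by 2.51 and Jun by 1.00. Fos was at 17.8 and 17.4 CPM at 2 h and at 5.72 and 6.4 CPM at 7 h, still above the controls (4.03 and 4.19 CPM). Ier3, a survival gene, went the other way, from 38.4 and 39.9 CPM to 297 and 270 CPM, a log2 fold change of 2.86, and the nuclear receptor Nr4a2 rose by 1.85. MAP kinase feedback genes were lower at 7 h than at 2 h in 13 of 15 cases, against the same 33.7% of all genes. Dusp1, a phosphatase of p38 and JNK, remained above the control by 1.38.

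Of 21 cytokine and NF-kB genes, 9 were higher and 7 lower than the control, near the 37.2% and 31.6% of all genes tested. Of the 21, 16 were lower than at 2 h, against 33.7% of all genes tested. Ptgs2, the inducible cyclooxygenase COX-2, had 129 and 137 CPM in the controls, 1594 and 1958 CPM at 2 h and 1111 and 1060 CPM at 7 h, which is a rise over the control, on the log2 scale, of 3.03 (SE 0.12). The chemokine Cxcl10 fell by 2.08 and the adhesion molecule Vcam1 by 1.60. Secreted growth factors, with 9 of 20 higher and 7 lower, also stood near the 37.2% and 31.6% of all genes tested. Adm (adrenomedullin, a vasodilator) rose from 3.93 and 4.64 CPM to 34.1 and 32.9 CPM (log2 fold change 2.98), Hgf from 0.186 and 0.367 CPM to 2.54 and 3 CPM (3.35), and Ereg, an EGF receptor ligand, by 1.99. Angptl4, an inhibitor of lipoprotein lipase, fell by 2.14, Pdgfb by 1.94 and Pdgfa by 1.14.

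Among 16 TGF-beta, BMP and ID genes, 10 were higher and 5 lower, with a median of 0.70 (0.30 on the log2(TPM + 1) scale). Id2, an inhibitor of helix-loop-helix factors, rose from 9.66 and 9.64 CPM to 76.7 and 76.3 CPM (log2 fold change 2.99), Id3 by 1.46 and Id1 by 1.33. Hes1, a target of Notch, fell by 1.69.

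Heat shock genes rose in part. Of 17 genes controlled by HSF1, 12 were higher and 3 lower, with a median of 0.45. Hsph1, of the same HSP110 family as Hspa4l, rose from 214 and 217 CPM to 1217 and 1196 CPM, a log2 fold change of 2.49 (SE 0.06), and the third family member, Hspa4, by 0.63. Hspa1b rose by 2.82 and Hspa1a by 2.20, though these copies are near identical and their reads may be divided between them. Cryab, a small heat shock protein, rose by 1.74, while Hspb8 fell by 1.32. Of 20 genes of the endoplasmic reticulum chaperones and unfolded protein response, 11 were higher and 5 lower. The sensor Atf6 rose from 68.7 and 66.6 CPM to 246 and 242 CPM (1.85), and Hspa5, the chaperone BiP, was not called (0.05).

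Of 18 genes of the integrated stress response, which follows phosphorylation of eIF2, 9 were higher and 3 lower, with a median of 0.24. Of the 18, 17 were lower than with H2O2, against 41% of all genes tested. Nupr1, a stress-induced chromatin protein, rose from 56.2 and 55.5 CPM to 293 and 321 CPM (2.46), and Atf4 by 0.52. NRF2 targets, the antioxidant genes, were higher in 9 of 10 cases with a median of 0.51, and 8 of them were lower than with H2O2. Gclc, of glutathione synthesis, rose by 1.33. The p53 targets gave 8 higher and 8 lower of 18. Cdkn1a, the cell cycle inhibitor p21, fell from 31.4 and 33.5 CPM to 11.3 and 13 CPM (-1.42), and was at 1397 and 1429 CPM with H2O2. Pmaip1, which encodes the cell death protein NOXA, rose by 1.87.

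**Figure D4:**
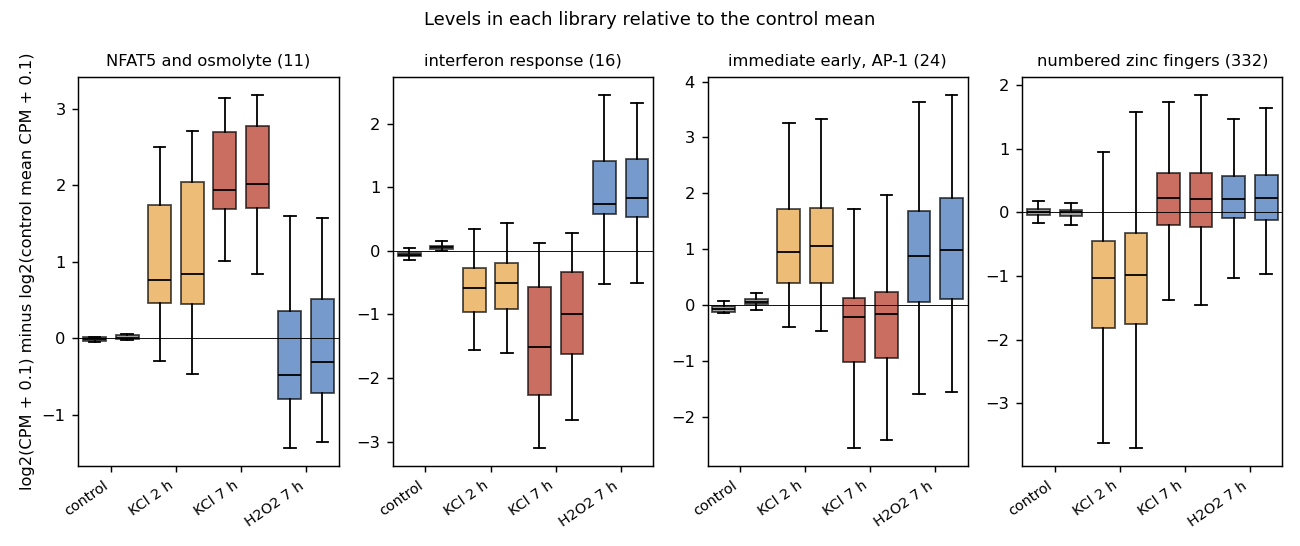
Levels of 4 gene lists in each library as log2(CPM + 0.1) minus that of the control mean (y axis; scales differ between panels), with boxes for the quartiles, whiskers to the last point within 1.5 box lengths and points beyond not drawn. KCl 7 h boxes lie highest for NFAT5 and osmolyte genes and lowest for interferon genes. Zinc finger genes are low at 2 h and near the control at 7 h.

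Genes of glucose use rose broadly. Of 17 glycolysis genes tested, 14 were higher and 1 lower than the control with a median of 0.55, 14 were higher than at 2 h and none lower, and in footprints 10 of 17 were higher and none lower. Slc2a1, the glucose transporter GLUT1, rose from 107 and 111 CPM to 293 and 309 CPM, a log2 fold change of 1.46 (SE 0.06, adjusted p 2.61e-10). Pfkfb3, which makes the activator of phosphofructokinase, rose from 7.49 and 7.15 CPM to 27.6 and 33.2 CPM (2.05), the phosphofructokinase Pfkp by 1.51, the lactate exporter Slc16a3 by 1.19 and Ldha by 0.53. Hk2, a hexokinase, fell by 0.21, a call lost without control replicate 2 or either KCl replicate.

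Lysosome and autophagy genes were higher in 16 of 21 cases and lower in 3, with a median of 0.45. Lamp1, a major lysosomal membrane protein, rose from 1347 and 1189 CPM to 2390 and 2612 CPM (0.98), the autophagosome protein gene Map1lc3b by 1.05 and the protease gene Ctsd by 0.80. Tfeb, the transcription factor of lysosomal genes, fell by 1.06. Of 27 cholesterol and fatty acid genes, 17 were higher and 5 lower (median 0.34), and 26 were higher than with H2O2. Sat1, which acetylates polyamines, rose from 107 and 103 CPM to 495 and 498 CPM (2.24).

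Genes of energy and protein machinery had small changes. Of 81 nuclear genes of the respiratory chain, 55 were called lower and 4 higher, with a median log2 fold change of -0.30. The 13 mRNAs of the mitochondrial genome went the other way, with 10 higher, 0 lower and a median of 0.38, and all 13 were higher than with H2O2. COX1, a subunit of cytochrome oxidase, had 7100 and 5924 CPM in the controls and 10737 and 9708 CPM after KCl (0.65). All 13 edgeR fold changes were above 0, and DESeq2 also called 0 lower. Of 80 cytosolic ribosomal protein genes, 20 were lower and 3 higher, a count that was 6 without KCl 7 h replicate 2, 11 without control replicate 2 and 40 on the TPM scale. Of 38 proteasome genes, 23 were lower, or 14 without control replicate 1 or KCl 7 h replicate 2. The 3 higher were Psmd5, an assembly factor of the proteasome (1.81), Psmd12 (0.16, a call lost without control replicate 1, control replicate 2 or KCl 7 h replicate 1) and the thymus subunit Psmb11 (3.84), which was under 1 CPM in all 4 libraries.

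Mitosis genes stood slightly above the control. Of 22 mitosis genes, 12 were higher and 2 lower than the control (median 0.20, highest Mki67 at 0.91). All 22 were higher than with H2O2, against 37.4% of all genes tested. The DNA replication list split into 6 higher and 7 lower of 24, with Ccne1, cyclin E1, falling most, from 31 and 28.9 CPM to 6.22 and 4.81 CPM (-2.43).

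Numbered zinc finger genes, most of which encode DNA-binding repressors, differed more from 2 h of KCl than from the control. Of 332 tested, 155 were higher and 73 lower than the control with a median of 0.20, while 265 were higher at 7 h than at 2 h and 29 lower, with a median difference of 1.36. Zfp111 had 18.9 and 19 CPM in the controls, 1.44 and 1.63 CPM at 2 h and 24.5 and 24.5 CPM at 7 h. It was thus nearly absent at 2 h and slightly above the control at 7 h, and the log2 difference between 7 h and 2 h was 3.99. Neat1, the RNA scaffold of paraspeckles, was also lowest at 2 h, with 951 and 1064 CPM in the controls, 82.3 and 49.5 CPM at 2 h and 698 and 620 CPM at 7 h. It was still lower than the control at 7 h (log2 fold change -0.61), whereas Malat1, another nuclear RNA, was higher by 1.53.

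Most genes with a large change from the control at 7 h also differed from 2 h in the same direction. Choosing the genes by the 7 h libraries favours this. Of the 1412 genes at least 2-fold higher than the control at 7 h, 1015 (71.9%) were also called higher at 7 h than at 2 h, 176 were lower and 221 were not called. Of the 1031 genes at least 2-fold lower, 904 (87.7%) were also lower at 7 h than at 2 h, 15 were higher and 112 were not called. In the direct comparison with 2 h, 9120 of 13256 genes (68.8%) were called, 35.1% higher and 33.7% lower, with 11.9% at least 2-fold higher and 9.96% at least 2-fold lower. Against H2O2 for 7 h, 10399 (78.4%) were called, 37.4% higher and 41% lower, with 14.3% and 19.6% at least 2-fold. With KCl, 1057 (74.9%) of the 1412 genes were higher than with H2O2 and 892 (86.5%) of the 1031 were lower. These shares describe genes chosen by the same KCl 7 h libraries.

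Footprints, sequenced in other libraries, were used to see whether large RNA changes were also seen on ribosomes. Of 10545 genes tested in footprints, 2148 (20.4%) were called at KCl 7 h against control, 1111 higher (10.5%) and 1037 lower (9.83%), with 6.08% at least 2-fold higher and 6.63% at least 2-fold lower. Of the 1412 genes at least 2-fold higher in RNA, 764 were tested in footprints, 698 had the same sign, 441 were called higher and 2 lower. These counts are a description, because 625 of the 1412 had under 1 CPM of RNA in the controls. Such genes can pass the footprint filter through a group where they are high. Of the 1031 genes at least 2-fold lower, 740 were tested, 712 had the same sign, 373 were called lower and 0 higher. Across 10480 genes tested in both, the log2 fold changes had a Pearson correlation of 0.679 and a Spearman correlation of 0.712, as a description across genes, which are not independent replicates.

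The NFAT5 and osmolyte genes were on ribosomes too. Of the 11, 9 were called higher and 1 lower in footprints. Akr1b3 had 258 and 146 footprint CPM in the controls and 3830 and 3853 after KCl, a log2 fold change of 4.25, against 4.45 in RNA. Slc6a12 had 1 and 0 footprint counts in the controls and 289 and 209 after KCl, a ratio of 622 (95% exact interval 111 to 24619). Csf1r had 1 and 2 counts against 141 and 135, a ratio of 115 (38.9 to 561). Footprints of Stc1 rose by 4.70 and those of Gjb2 fell by 5.22 on the log2 scale. Sgk1, with a footprint log2 fold change of -0.22, was not called there.

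Immediate early genes were mostly lower in footprints. Of 23 immediate early genes tested in footprints, 13 were called lower and 2 higher, with a median of -1.28, against -0.22 for the list in RNA. Lif, a cytokine, had 48.7 and 30.2 footprint CPM in the controls and 2.25 and 0.851 after KCl, a log2 fold change of -4.72, against -0.78 in RNA. Footprints of Nr4a1 fell by 2.5, and its RNA was not called (-0.02). Srf, a transcription factor of cytoskeletal genes, rose by 1.22 in RNA and fell by 1.28 in footprints. Pdgfb had 87 and 51 footprint counts in the controls and 0 and 1 after KCl. Ptgs2, with a rise of 3.03 in RNA, was not called in footprints (0.67, adjusted p 0.0568).

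Calls of opposite sign were few: of 4105 genes higher in RNA and tested in footprints, 35 were called lower there, and of 3717 genes lower in RNA, 4 were called higher. Those with the lowest footprint change among the former were Areg, an EGF receptor ligand (RNA 0.56, footprints -2.48), Mapk6, an atypical MAP kinase (0.22 and -1.65), Atxn1 (0.93 and -1.64), Dusp6, a phosphatase of ERK (0.82 and -1.47), and Traf3, an adaptor of immune receptors (0.49 and -1.46). The 4 of the latter were Rab3il1 (-0.81 and 2.21), Kitl, the ligand of KIT (-0.55 and 1.5), Fam193b (-0.53 and 1.36) and Prkrir (-0.46 and 0.82). Prkrir also stands in the RNA table under another symbol, Thap12. With both summed its RNA log2 fold change was -0.60, and footprint counts were not summed. The RNA call of Areg was lost without any of the 4 libraries, that of Mapk6 without control replicate 1 or KCl 7 h replicate 1, and differences between RNA and footprints were not tested here.

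**Figure D5:**
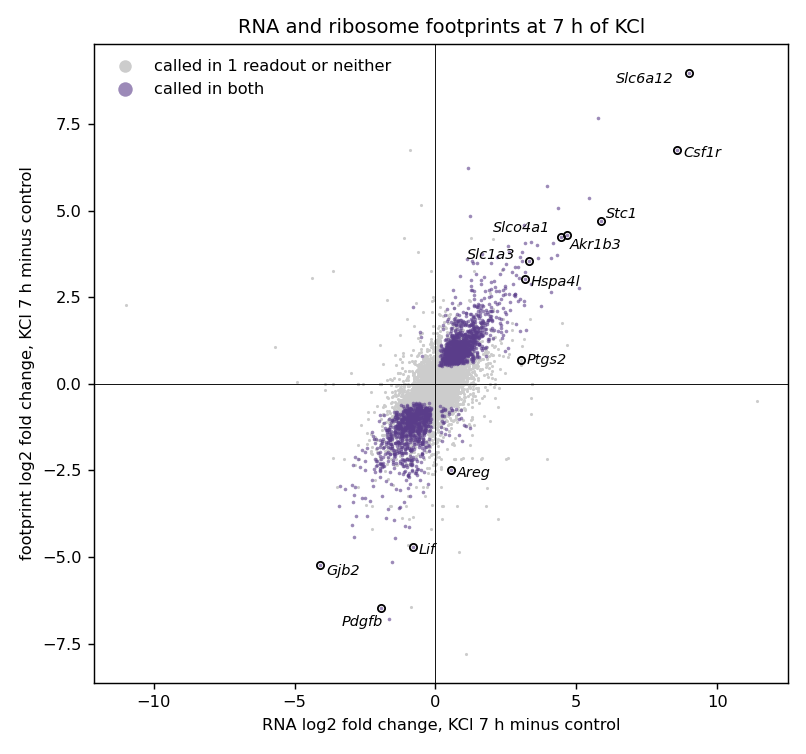
Log2 fold change of RNA (x axis) against that of footprints (y axis), KCl 7 h minus control, for 10480 genes tested in both, with the 1976 called in both in purple. Slc6a12, Csf1r, Stc1, Akr1b3 and Gjb2 are far from 0 on both axes, while Ptgs2 is high in RNA and not called in footprints, and Lif and Pdgfb are further below 0 in footprints.

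The authors' table of transcription past gene ends was read for the same RNA libraries, since such transcripts can add reads to the next gene. Of 6399 pairs of neighbouring genes, 1520 and 1498 carried a call of a transcript downstream of the gene in the KCl 7 h libraries and 1551 and 1615 in the controls, against 2042 and 2220 at 2 h of KCl. Calls that such a transcript ran into the next gene (read-in) numbered 59 and 65 at 7 h, 36 and 35 in the controls and 174 and 189 at 2 h. At 7 h the libraries therefore stood between the control and 2 h for read-in, and slightly below the control for downstream calls. Depth differed between libraries, with 45244430 and 35775040 counts in the controls, 30094091 and 24441877 at 7 h and 25207561 and 26939393 at 2 h. Its part in these calls was not tested. Of 46 pairs called read-in in both KCl 7 h libraries, 20 were called in no control library, and 4 showed the reverse.

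Of the 20 downstream genes, 19 were tested in RNA, where 10 were higher and 7 lower than the control with a median of 0.27. Col20a1, a collagen downstream of Arfgap1, had 5.71 and 5.29 CPM in the controls and 32 and 34 CPM after KCl (log2 fold change 2.58), and Spef1, downstream of Cenpb, rose by 2.40. Tnni3 rose by 1.21, Cntf by 1.10, Dpp7 by 1.09, Ccdc97 by 0.76, Cnbd2 by 0.73, Dmpk by 0.68, Mpv17 by 0.30 and Pabpn1 by 0.27, a call lost without control replicate 1 or KCl 7 h replicate 1. In footprints 14 were tested, 2 were higher (Dpp7 and Mpv17) and 3 lower. The 20 pairs were chosen by read-in calls in the same RNA libraries, which favours higher estimates with KCl. As a description, the authors' read-in estimate, a ratio, was above both controls in both KCl libraries for 17 of the 20 pairs. It was not for Col20a1 (1.85 and 2.45 with KCl, 1.98 and 2.31 in the controls), Spef1 (1.78 and 1.80 against 1.91 and 1.51) or Cntf (0.897 and 0.792 against 0.957 and 1.00). Of the 499 genes at least 4-fold higher, 211 were the downstream gene of a pair in the table, and 3 of these (1.42%) were called read-in in a KCl 7 h library, against 77 of 5105 (1.51%) over all genes tested, a share near the background.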

How the data were processed

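RNA and ribosome footprints of NIH3T3 cells were analysed from expected counts per gene that the authors deposited. Per the submitters' processing notes, STAR, RSEM, Bowtie and the mm10 build were used, with no versions or roles given. RNA libraries came from the NEB E7760 kit per the labels, and whether counting used strand was not given in the sources used here. The authors also deposited TPM per gene and a read-in estimate (a ratio, formula not given), and true or false calls of downstream transcripts and read-in, a deposited table with no score.

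Counts were whole numbers and were tested with edgeR 4.0.16 (R 4.3.3): TMM scaling, filterByExpr, a quasi-likelihood fit of 10 libraries in 5 groups (residual df 5) and Benjamini-Hochberg adjustment over 13256 RNA or 10545 footprint genes, with a threshold of 0.05. Alternatives used DESeq2 1.42.0, limma 3.58.1 on log2(TPM + 1) with a pseudocount of 1, RLE scaling, no filter, a 2-fold minimum, 2 groups alone, a replicate block, each library left out, and, chosen after seeing the data, counts summed over symbols of the same gene (99 genes). Genes with at most 3 counts in a group were given as ratios with 95% exact intervals, which cover counting error only.

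Genes named are the 15 largest rises and falls among called genes with a mean log2 CPM of at least 3 that did not overlap the controls, clone names aside; some genes these rules name are not reported here. The 5 largest each way against KCl 2 h and H2O2 7 h, up to 5 genes with at most 3 control counts, list members, the 10 highest in TPM, 10 read-in genes and up to 5 genes each way with opposite footprint calls were named as well. Members and lists were chosen with earlier results of these data known. The pattern for mitochondrial mRNAs was changed after the table was seen, because it matched no symbol. RefSeq tables (GRCm38.p6) held 19885 of 20430 symbols. A further 12 columns with no labelled sample were not used. Histone, ribosomal and zinc finger families share near-identical copies, so reads may be divided among them. Scripts were tested on simulated data.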

Additional observations from a re-analysis of the deposited data

Results flagged for a closer look

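Direct tests between conditions called 9120 genes between 7 h and 2 h of KCl and 10399 between KCl and H2O2 at 7 h. Each is a test of the difference between those conditions (edgeR, adjusted p under 0.05). Against 2 h, the largest rises were those of the zinc finger genes Zfp111 (log2 difference 3.99), Zfp760 (3.91), Zfp329 (3.91) and Zfp626 (3.89), and of the hormone gene Stc1 (3.84). Zfp760 had 12.9 and 11.6 CPM in the controls, 1.23 and 1.47 CPM at 2 h and 20.7 and 20.1 CPM at 7 h, and Zfp329 and Zfp626 followed the same order. Large falls against 2 h were those of Tent4b (-6.25), Gjb2 (-4.23), Apol8 (-3.94) and Ints13 (-3.60). Apol8 had 31.4 and 26.2 CPM at 2 h and 2.18 and 1.5 CPM at 7 h, still above the controls (0.476 and 0.419 CPM). Tent4b and Ints13 also stand in the table under other symbols, and with these summed the differences were 0.25 and 0.29.

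Against H2O2 for 7 h, the largest rises with KCl were those of Slc1a3 (log2 difference 5.84), Prss35 (5.83), Gper1 (5.59), Akr1b3 (5.03) and Stc1 (4.97). The first 4 had lower levels with H2O2 than in the controls, a difference not tested here. Prss35, for example, had 1.61 and 1.74 CPM against 11.1 and 10.2 CPM. Large falls were those of Zfp750, which was 1106-fold lower with KCl (95% exact interval 306 to 9133), Evpl (-8.24), Sec14l5 (-8.12) and Matn4 (-7.90). Evpl, a protein of the cornified envelope of skin, had 205 and 216 CPM with H2O2, 0.572 and 0.839 CPM with KCl and 1.45 and 1.47 CPM in the controls. These 4 were at under 2 CPM in all KCl 7 h and control libraries.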

How the results depend on the processing

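Requiring a 2-fold change gave 2443 genes (1412 higher, 1031 lower) against control, 2896 (1576, 1320) against 2 h, 4491 (1895, 2596) against H2O2 and 1340 in footprints (641 higher). Leaving out any 1 library, with the lone sample assumed to vary like the other groups, took the footprint count from 2148 to between 996 (without KCl 7 h replicate 2) and 1381 (without control replicate 1) (536 to 690 higher, 405 to 691 lower; 1041 without control replicate 2 and 1036 without KCl 7 h replicate 1), and the RNA count from 9118 to between 8255 and 8401; beyond fewer samples, the cause was not tested. Other RNA counts were 8582 with DESeq2, 9126 with RLE, 9234 with no filter, 9103 with 2 groups alone and 8833 on log2(TPM + 1). Replicate numbers did not pair the RNA samples (correlations of replicate deviations between groups from -0.053 to 0.054). In footprints these correlations ran from -0.384 to 0.417, with 0.215 for control against KCl 7 h and 6 of 10 pairs of groups over 0.1. Footprint replicates may thus be partly paired, which the main footprint fit does not take into account. A replicate block gave 9177 genes against control, 9213 against 2 h, 10459 against H2O2 and 2240 in footprints. With symbols of the same gene summed, Qtrt2 (-0.23) and Tent4b (0.83) changed sign, because reads were divided between their symbols. Counting pairs called in either library gave 2177 pairs with downstream transcripts at 7 h, 2249 in the control and 78 read-in pairs at 7 h. Of counts for comparisons, 119 stayed within 1.5 times and 26 did not. Depth limits the genes under 1 CPM.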

Other observations

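The 10 RNAs with the highest TPM at 7 h of KCl were 7 mitochondrial mRNAs (COX2, ATP6, COX1, COX3, ND1, CYTB and ND4) and the nuclear genes Eef1a1, a translation elongation factor, Ppia, a prolyl isomerase, and Tpt1, a translationally controlled protein. COX2 had a mean of 12206 TPM in the controls and 16446 TPM after KCl, a log2 fold change of 0.53. The 3 nuclear genes moved less than COX2: Eef1a1 had a log2 fold change of 0.17, Ppia of -0.16 and Tpt1 of 0.18, and each call was lost without some single libraries: Eef1a1 and Tpt1 without control replicate 2 or KCl 7 h replicate 1, and Ppia without control replicate 1 or KCl 7 h replicate 2.

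Lists with members on both sides included the circadian clock, with 7 of 15 higher and 3 lower than the control at an adjusted p under 0.05 (edgeR), against 37.2% and 31.6% of all genes. Arntl, which encodes BMAL1, rose by 1.32, while Dbp, an output gene of the clock, fell by 1.54. Of 17 genes of cleavage, polyadenylation and termination, 11 were higher and 2 lower, all within 0.69 of 0 on the log2 scale. Of 13 splicing kinases and SR proteins, 9 were higher and 3 lower, and without control replicate 1 or KCl 7 h replicate 1 the higher count was 5. Clk1, a kinase of SR proteins, rose by 0.82. Extracellular matrix genes gave 9 higher and 11 lower of 28: Col4a1 and Col4a2, of basement membranes, rose by 0.78 and 0.85, and the fibrillar collagen Col3a1 fell by 0.77. Of 68 replication-dependent histone genes, whose RNAs mostly lack a polyA tail, 24 passed the filter, and 6 were higher and 1 lower.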
